A study of Mus musculus with 10 samples.

Results

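Cytosolic ribosomal protein genes encode the proteins of the large and small subunits of the cytosolic ribosome. Their rows were taken by symbol: Rpl or Rps followed by a number, with or without the endings a, x, l or l1, and Rpsa, Rplp0, Rplp1 and Rplp2. Pseudogene rows ending in -ps and the S6 kinase genes were left out. Of 30295 gene rows, 84 matched, and 81 had a TPM (transcript abundance scaled by length and library total) of at least 1 in 2 or more libraries, 48 of the large and 33 of the small subunit. Rpl3l, Rpl10l and Rpl39l, paralogs known from muscle and testis, did not reach that level. All 81 kept members passed the filter on low counts and were tested. The search leaves out ribosomal proteins whose symbols have another form, such as Fau, Rps3a1 and Rpl36al.

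The study sorted intestinal stem cells from C57Bl/6 mice into 10 libraries. Cells carrying Lgr5-EGFP-IRES-CreER, a marker of cycling crypt base stem cells, gave 3 libraries from ad libitum feeding (Lgr5 AL) and 3 from calorie restriction (Lgr5 CR). Cells marked by Hopx-CreER::LSL-tdTomato, used for reserve stem cells, gave 2 libraries from ad libitum feeding (Hopx AL) and 2 from calorie restriction (Hopx CR). Each isolation number in the labels is shared by an AL and a CR library, numbers 1 to 3 in Lgr5 and 4 and 5 in Hopx. All groups carry a CreER allele, driven by the Lgr5 or the Hopx locus. A tdTomato mark made by CreER is kept by the progeny of a marked cell, whereas EGFP follows Lgr5 itself. The labels do not say whether the libraries of a group came from separate mice, so p-values measure the spread between these libraries.

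Every translating cell needs ribosomal proteins in near-equal numbers, 1 of most kinds per ribosome, and their mRNAs are short and abundant. Most of these mRNAs begin with a pyrimidine tract, the 5′ terminal oligopyrimidine (TOP) tract, through which the kinase complex mTORC1 and the RNA-binding protein Larp1 set their translation and stability with nutrient supply. In the intestine mTORC1 in Paneth cells and stem cells is known to respond to calorie restriction. The libraries measure mRNA, not translation.

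Libraries held 20.3 M to 87.2 M estimated counts. The Lgr5 mRNA ranged from 18.4 to 93.9 TPM in Lgr5 libraries and from 9.88 to 31.1 TPM in Hopx libraries. The Hopx mRNA was lower in the libraries labelled Hopx (76.0 to 110.8 TPM) than in those labelled Lgr5 (138 to 238 TPM). By TPM the transcript of the marker gene thus goes against the sort label. On that scale 88.6% of all genes were lower in Hopx under AL and 81% under CR. By edgeR the log2 difference of Hopx was -0.23 under AL and -0.60 under CR (adjusted p = 0.541 and 0.572). Names of groups below are the labels. The Paneth cell genes Lyz1, Defa17, Defa24, Mmp7, Itln1 and Ang4 summed to 63312 to 167545 TPM in Lgr5 and 153034 to 287322 TPM in Hopx libraries. None of the marker genes checked was at 0 in any library.

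Values are given on a pair of scales. CPM are counts relative to library size (counts-per-million unit) after edgeR's TMM scaling, which sets the bulk of genes equal between libraries. TPM divides by length and sets the library total equal. For 12351 rows with enough counts the ratio of estimated count to TPM was the same in all 10 libraries within 1%, after 1 scale factor per library, so each gene carries a single length throughout. Between libraries the scales therefore differ by 1 factor, the same for all genes, and only TPM compares levels between genes.

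The members together took a few percent of the transcripts. By TPM their share of the table was 2.24%, 2.91% and 3.39% in Lgr5 AL, 2.27%, 2.85% and 2.07% in Lgr5 CR, 1.92% and 3.21% in Hopx AL, and 1.95% and 2.92% in Hopx CR. The groups overlap throughout. Isolation 5 was above isolation 4 in both Hopx diets, and isolation 2 above isolation 1 in both Lgr5 diets. Isolation 3 had the highest Lgr5 share under AL and the lowest under CR. In bulk samples fewer cells of a type and less RNA per cell cannot be told apart.

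The median member, on the CPM scale, stood at 80.8, 93.4 and 77.3 CPM in the Lgr5 AL libraries, 75.4, 103 and 65.4 in Lgr5 CR, 118 and 150.1 in Hopx AL, and 86.1 and 126 in Hopx CR. All 4 Hopx libraries were above the lowest 4 Lgr5 libraries, and both Hopx AL libraries were above every Lgr5 library. Hopx CR replicate 1, at 86.1 CPM, lay within the Lgr5 range. The same median member in TPM was 231, 271 and 305 TPM in the Lgr5 AL libraries, 216, 282 and 190.1 in Lgr5 CR, 209 and 324 in Hopx AL, and 194 and 314 in Hopx CR, where the reporter lines overlap.

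**Figure D1:**
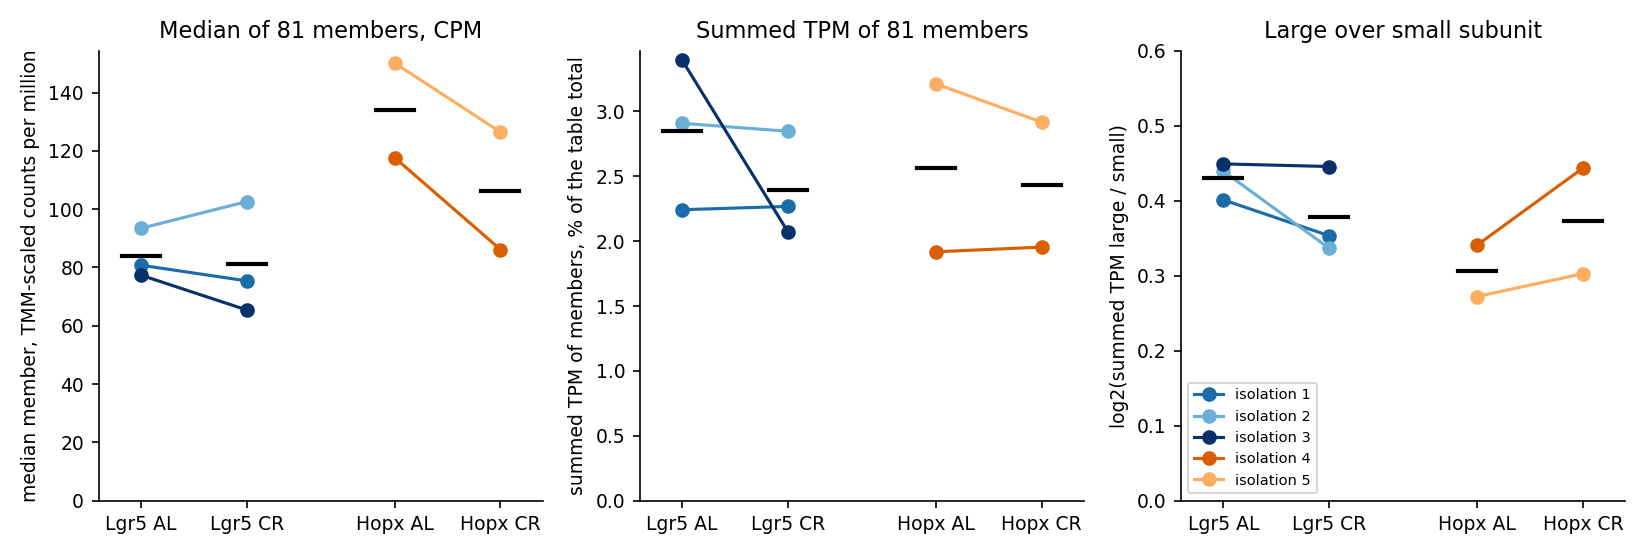
Levels of the ribosomal protein genes in the 10 libraries. Left, CPM of the median of 81 members; middle, their summed TPM as a percent of the table total; right, log2 of the summed TPM of the large over the small subunit. Points are single libraries, lines join the AL and CR library of an isolation and black bars are group means. Both Hopx AL libraries lie above all Lgr5 libraries by CPM (117.6 and 150.1) but not by TPM share, and isolations 4 and 5 keep their order in both diets.

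Some differences between isolations recurred in both diets. In Hopx AL, isolation 5 exceeded isolation 4 for 72 of 81 members, with a median log2 CPM difference of 0.32. In Hopx CR it did so for 80 members, with a median of 0.54. Isolation 2 exceeded isolation 1 for 73 members under AL and 78 under CR, with medians of 0.31 and 0.40. Isolation 1 exceeded isolation 3 for 42 members under AL and 68 under CR, with medians of 0.00 and 0.17. The medians for isolation 5 over 4 and isolation 2 over 1 are of the size of the Hopx diet median given below (-0.34). They are larger in size than the Lgr5 diet median (-0.02). Hopx AL replicate 2 held the highest CPM of 65 members and Lgr5 CR replicate 3 the lowest of 51.

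Levels per length spread widely among members. Rpl13 (mean 911 TPM), Rps18 (908 TPM) and the stalk protein Rplp0 (801 TPM) were the highest per length. The 3 lowest of those kept were Rps25 (24.8 TPM), Rpl12 (23.9 TPM) and Rps12 (2.61 TPM). Rpl13 stood at 838, 1027 and 1343 TPM in the Lgr5 AL libraries, 878, 1018 and 805 in Lgr5 CR, 657 and 959 in Hopx AL, and 662 and 927 in Hopx CR. Rps12 is a case of divided reads, described with the copies below. Across the 10 libraries, log2 CPM of a member correlated with that of the median member with a median Pearson r of 0.94. The r was over 0.8 for 69 of 81 members and under 0.5 for 6: Rps12, Rps4l, Rpl7l1, Rpl29, Rps13 and Rpl3. The members themselves make up that median, and all share library and depth, so these r values describe the table only.

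Between diets in Lgr5 cells the members had a median near 0 by CPM and below 0 by TPM. No member passed an adjusted p of 0.05 (edgeR quasi-likelihood, Benjamini-Hochberg over 15839 genes), against 0.0189% of all genes. Of 81, 31 were higher and 50 lower under CR (48.2% of all genes were lower), with a median log2 difference of -0.02 beside 0.02 for all genes. This direction turned on single libraries: 53 were higher without Lgr5 AL replicate 2 and 56 without Lgr5 CR replicate 3, and 74 were lower without Lgr5 CR replicate 2. Leaving out replicate 1 or 3 of Lgr5 AL gave 62 and 64 lower. In the fit of all libraries none had an unadjusted p under 0.05, where 4.21% of all genes were lower and 5.57% higher with such a p. Leaving out Lgr5 CR replicate 2 gave 5 members lower with such a p, and leaving out Lgr5 AL replicate 3 gave 1. By TPM with limma, 78 of 81 were lower, beside 68.0% of all genes, with medians of -0.24 and -0.15.

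The smallest p values in Lgr5 belonged to Rpl21, Rpl3, Rpl5, Rps4l and Rps7, all lower under CR. Rpl21, a large subunit protein, stood at 80.3, 78.9 and 82.1 CPM in the Lgr5 AL libraries, 54.3, 76.9 and 50.1 in Lgr5 CR, 179 and 213 in Hopx AL, and 114 and 156 in Hopx CR. Its Lgr5 CR libraries were all below the Lgr5 AL libraries, the highest CR value lying just under the lowest AL value. The log2 difference of -0.41, SE 0.20, did not pass edgeR's test (adjusted p = 0.532). Rpl5, which with Rpl11 joins the ribosome as a particle and binds Mdm2 when free, stood at 48.5, 41.5 and 49.5 CPM in the Lgr5 AL libraries, 30.3, 46.8 and 30.6 in Lgr5 CR, 53.8 and 65.7 in Hopx AL, and 29.4 and 48.5 in Hopx CR. Lgr5 AL and CR overlap through isolation 2, and the log2 difference of -0.37, SE 0.24, had an adjusted p of 0.642 in edgeR. Rps7, mutated in some Diamond-Blackfan anaemia, stood at 125, 106 and 88.9 CPM in the Lgr5 AL libraries, 75.4, 103 and 66.8 in Lgr5 CR, 113 and 133 in Hopx AL, and 87.4 and 168 in Hopx CR; its diet groups overlap only through Lgr5 CR replicate 2.

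In Hopx cells most members had lower values under CR, but no single member passed the test. On the CPM scale 77 were lower, 3 higher and Rps12 had no counts in either diet, where 51.3% of all genes were lower. The median log2 difference was -0.34 beside -0.02 for all genes. No member had an adjusted p under 0.05 (0.0126% of all genes did in edgeR), and 7 were lower with an unadjusted p under 0.05, against 3.11% of all genes. None was higher with such a p, where 5.41% of all genes were. The count of 7 went from 0 without Hopx CR replicate 1 to 32 without Hopx CR replicate 2. It was 1 without Hopx AL replicate 2, 3 without Lgr5 AL replicate 2, 4 without replicate 3 of either Lgr5 diet, and 11 without Hopx AL replicate 1 or Lgr5 CR replicate 2. With isolation as a block, 28 members were lower with such a p (3.72% of all genes), still with none past the adjusted threshold, and the median was -0.36.

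The size of this difference depends on the scale and on single libraries. By TPM the members' median was -0.07, with 29 higher and 52 lower (25.9% of all genes), while all genes had a median of 0.24. Set against the median of all genes, the members were at -0.32 by CPM and -0.30 by TPM, and 5 of 81 lay above the median gene on either scale. Leaving out Hopx CR replicate 1 brought the CPM median to -0.10, and leaving out Hopx CR replicate 2 brought it to -0.63. The sums of Paneth cell genes were 287322 and 191927 TPM in Hopx AL and 208787 and 153034 in Hopx CR, with 6 of 6 lower under CR by CPM (median log2 difference -0.67). All 7 immune cell genes were lower under CR as well (median -1.73). Their summed level was 134 and 75.8 TPM in Hopx AL and 16.2 and 64.1 in Hopx CR. The 6 enterocyte genes were all higher under CR (median 0.72), and their sums did not overlap, with 6273 and 5851 TPM in Hopx AL and 10437 and 13039 in Hopx CR. Sums of dividing cell genes did not overlap either, with 183 and 300.2 TPM in Hopx AL and 353 and 324 in Hopx CR. Of these genes, Mki67, Ccnb1 and Cdk1 were higher in both CR libraries than in both AL libraries, while Top2a, Pcna and Mcm5 overlapped. By TPM 25.9% of all genes were lower, as given above. The part of these cells in the members' values was not tested.

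Rpl12 had the smallest p in Hopx. This protein forms the base of the stalk that recruits elongation factors. It stood at 22.3, 20.6 and 21.5 CPM in the Lgr5 AL libraries, 15.8, 22.5 and 16.1 in Lgr5 CR, 28.3 and 36.4 in Hopx AL, and 18.1 and 22.2 in Hopx CR. Both Hopx CR libraries were below both Hopx AL libraries, and the log2 difference of -0.68, SE 0.25, had an adjusted p of 0.526 in edgeR. Rpl13a, known for translational silencing when released from the ribosome, stood at 40.1, 52.4 and 38.7 CPM in the Lgr5 AL libraries, 27.2, 54.9 and 29.8 in Lgr5 CR, 61.3 and 77.4 in Hopx AL, and 31.5 and 46.1 in Hopx CR. Its Hopx CR values were also below both AL values (log2 difference of -0.84, SE 0.35; adjusted p = 0.558, edgeR). Rpl29, the third of the members with a mean TPM of at least 10 by departure from the median member, stood at 143, 185 and 133 CPM in the Lgr5 AL libraries, 138, 183 and 143 in Lgr5 CR, 207 and 147 in Hopx AL, and 96.6 and 126 in Hopx CR, with both CR libraries below both AL libraries in Hopx. Rpl29, Rpl24 and Rps4l completed the 5, with log2 differences of -0.66, -0.44 and -0.68.

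Within isolations the pattern was uneven. On the CPM scale, CR minus AL had a median over members of -0.02, 0.07 and -0.19 in isolations 1, 2 and 3, and of -0.50 and -0.24 in isolations 4 and 5. Members lower in the CR library numbered 44, 24, 68, 77 and 72 of 81 in isolations 1 to 5, where all genes were lower in 49.7%, 49.8%, 46.2%, 50.2% and 50.4%. By log2(TPM + 1) the medians were -0.01, -0.02, -0.72, -0.03 and -0.14, so isolation 3 stood out and isolation 4 did not. All genes together moved by -0.44 in isolation 3 and 0.39 in isolation 4 on that scale. By CPM, 10 members were lower under CR within every isolation, 37 within 4 of the 5, 23 within 3, 8 within 2 and 3 within 1 or none.

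**Figure D2:**
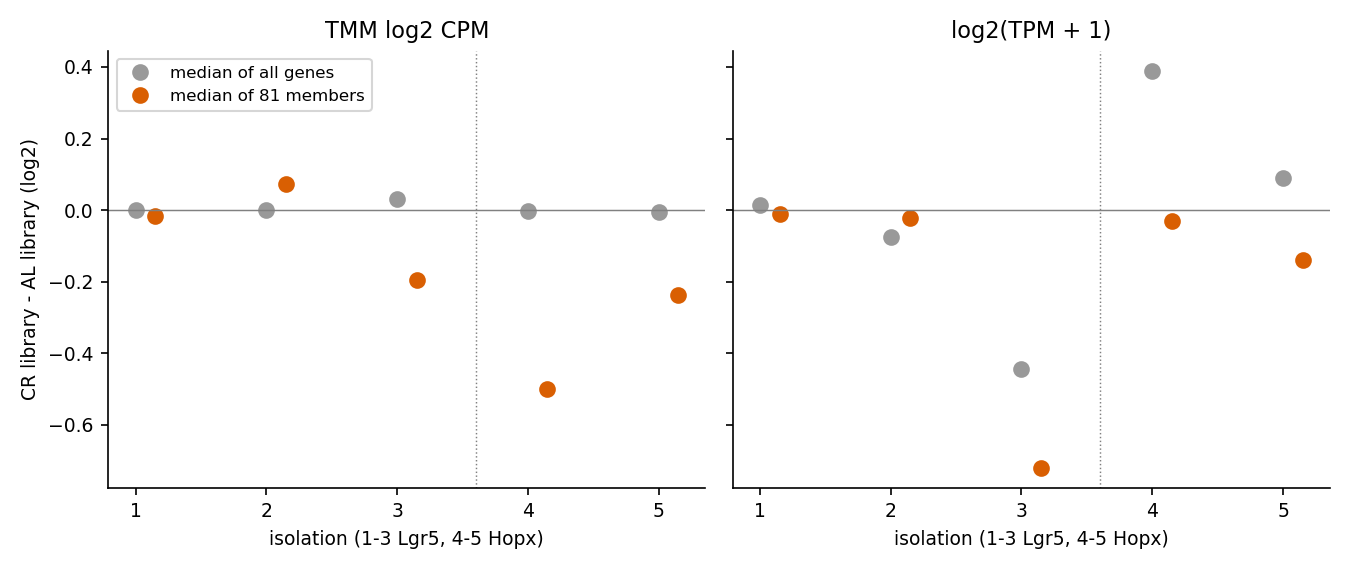
Difference between the CR and the AL library of each isolation. The vertical axis is the median log2 difference over the 81 members (orange) and over all genes (grey), by TMM log2 CPM (left) and log2(TPM + 1) (right), and the dotted line divides Lgr5 from Hopx isolations. The orange point lies 0.50 below 0 in isolation 4 by CPM and 0.03 below 0 by TPM, where grey is at 0.39.

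Whether the diet difference itself differed between the lines was tested with the interaction term, and no member passed (edgeR; smallest adjusted p 1.00, against 0.00631% of all genes past 0.05). The members' median for Hopx minus Lgr5 was -0.30 beside -0.04 for all genes, with 79 of 81 negative where 53.5% of all genes were. By TPM the median was 0.20 beside 0.38 for all genes, with 66 of 81 positive (82.7% of all genes), so the sign turned while the members stayed below the median gene. One member, Rpl3, had an unadjusted p under 0.05 (log2 difference 0.69), where 2.83% of all genes were positive and 1.89% negative with such a p. With isolation as a block 1 member was positive (2.94% of all genes) and 5 were negative (1.88%) with such a p. The next by p were Rpl29, Rps12l1, Rps20 and Rpl23, with differences of -0.67, -0.88, -0.65 and -0.49. Rpl3 depends on how its reads were divided, as given below. The median was -0.61 without Hopx CR replicate 2, -0.11 without Hopx CR replicate 1, -0.15 without Hopx AL replicate 2 and -0.13 without Lgr5 CR replicate 2. The first of these fits had 9 members negative with an unadjusted p under 0.05.

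Under ad libitum feeding most members had higher values in Hopx than in Lgr5 cells by CPM and lower values by TPM. Of 81, 77 were higher (52.4% of all genes), with a median log2 difference of 0.64 beside 0.04 for all genes. None passed the adjusted threshold in edgeR (0.0189% of all genes did), and 51 were higher with an unadjusted p under 0.05, against 9.27% of all genes. Among the shortest other genes that share was 19.6%, as given with length below. None was lower with such a p, where 8.42% of all genes were. The count of 51 was 9, with 1 lower, without Hopx AL replicate 2, and 30 without Lgr5 AL replicate 3. DESeq2 with an adjusted p under 0.05 called 11 members higher and none lower, with 2.82% of all genes higher. These were Rpl10, Rpl21, Rpl22, Rpl23, Rpl24, Rpl30, Rplp1, Rps12l1, Rps16, Rps27l and Rps29. Of these, Rps12l1 is annotated as a pseudogene. Copy rows held 45.3% of the TPM of Rpl10 and its copies, and 29.7% for Rps16. With no filter on low counts edgeR called 3 (Rpl21, Rpl30 and Rps12l1), where 0.465% of all genes were called higher. The 4 members lower in Hopx were Rps12, Rps4l, Rpl3 and Rps13, of which Rps12, Rps13 and Rpl3 had reads divided between rows.

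By TPM the members' median was -0.15, with 56 lower (88.6% of all genes) and 25 higher, while all genes had a median of -0.62. Against the median gene the members were 0.60 higher by CPM and 0.48 higher by TPM, with 76 and 74 of 81 above it. limma on TPM called Rpl3, Rps4l and Rpl7l1 lower, where 28.6% of all genes were called lower. The Paneth cell genes named above were higher in Hopx AL by CPM for 6 of 6 (median 1.52), and their TPM sums did not overlap between Hopx AL and Lgr5 AL libraries. The summed goblet cell genes were also higher in both Hopx AL libraries (3205 and 2571 TPM) than in Lgr5 AL (1418 to 2332). Most of that sum was Tff3, at 2731 and 2246 TPM in Hopx AL and 764 to 1549 in Lgr5 AL. By TPM, Muc2 and Fcgbp were lower in both Hopx AL libraries than in every Lgr5 AL library, and Clca1 overlapped. Sums of active stem cell genes were lower (961 and 1694 against 2364 to 7999.9 TPM), as were those of dividing cell genes (183 and 300.2 against 315 to 527 TPM). On this scale 88.6% of all genes were lower, as given above. Of the dividing cell genes, Ccnb1, Cdk1 and Pcna were lower in both Hopx AL libraries than in every Lgr5 AL library, while Mki67, Top2a and Mcm5 overlapped. The part of these cells in the members' values was not tested. Each isolation holds a single reporter line, so line and isolation cannot be told apart.

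Rpl21 led the comparison, with both Hopx AL libraries above every Lgr5 library in the CPM given above (log2 difference of 1.28, SE 0.22; adjusted p = 0.0581, edgeR). Its gene lies on chromosome 5 (chr5:146832890-146837032, RefSeq, GRCm38.p6). Rpl30, on chromosome 15, stood at 48.9, 48.9 and 42.8 CPM in the Lgr5 AL libraries, 49.7, 62.8 and 42.0 in Lgr5 CR, 93.3 and 117 in Hopx AL, and 60.8 and 101 in Hopx CR. The Lgr5 and Hopx AL ranges do not overlap, and the log2 difference of 1.16, SE 0.24, had an adjusted p of 0.0775 in edgeR. Rps27l, a paralog of Rps27 known as a target of p53, stood at 94.1, 86.8 and 64.3 CPM in the Lgr5 AL libraries, 67.4, 93.9 and 54.2 in Lgr5 CR, 166 and 161 in Hopx AL, and 96.4 and 163 in Hopx CR. It was higher in both Hopx AL libraries than in any Lgr5 library (log2 difference of 1.00, SE 0.28; adjusted p = 0.130, edgeR). Rps29, among the shortest members, stood at 44.0, 54.1 and 38.0 CPM in the Lgr5 AL libraries, 34.7, 59.1 and 26.2 in Lgr5 CR, 85.4 and 150.1 in Hopx AL, and 48.4 and 98.3 in Hopx CR and had a log2 difference of 1.37, SE 0.39 (adjusted p = 0.134, edgeR). Rps12l1, Rpl22 and Rpl23 completed the 5 with the smallest p, with log2 differences of 1.41, 0.95 and 0.80.

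Under calorie restriction most members were again higher in Hopx by CPM, whereas by TPM higher and lower members were near equal in number. By CPM 74 members were higher in Hopx (50.2% of all genes) and 7 lower, with a median of 0.29 beside 0.00. None passed in edgeR (0.0189% of all genes did), 9 were higher with an unadjusted p under 0.05 against 3.31% of all genes, and Rps4l was lower with such a p, as were 2.99% of all genes. By TPM 42 members were lower (81% of all genes) and the median was -0.02. DESeq2 called Rpl21 higher, where 0.404% of all genes were. Rpl21 had a log2 difference of 1.16, SE 0.22 (adjusted p = 0.202, edgeR). Rps27l, Rpl10, Rpl30 and Rpl35a followed, with log2 differences of 0.85, 0.49, 0.66 and 0.77. Rpl10, which joins the large subunit late in its maturation, stood at 178, 209 and 183 CPM in the Lgr5 AL libraries, 175, 196 and 161 in Lgr5 CR, 307 and 278 in Hopx AL, and 225 and 274 in Hopx CR, with the Hopx libraries above the Lgr5 libraries in this row. Copy rows held 45.3% of the TPM of Rpl10 and its copies, and with them added the log2 difference was 0.20 in place of 0.49. Without Hopx CR replicate 2 the median over members was 0.03, with 47 higher and 1 of them at an unadjusted p under 0.05. Without Lgr5 CR replicate 3 it was 0.18, and without Hopx CR replicate 1 and Lgr5 CR replicate 2 it was 0.56 and 0.47. The count of 9 was 3 without Lgr5 CR replicate 1, 2 without Lgr5 CR replicate 3, and 26 without Hopx CR replicate 1 or Lgr5 CR replicate 2. The 2 comparisons between lines share no library, whereas each shares libraries with the diet comparisons.

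**Figure D3:**
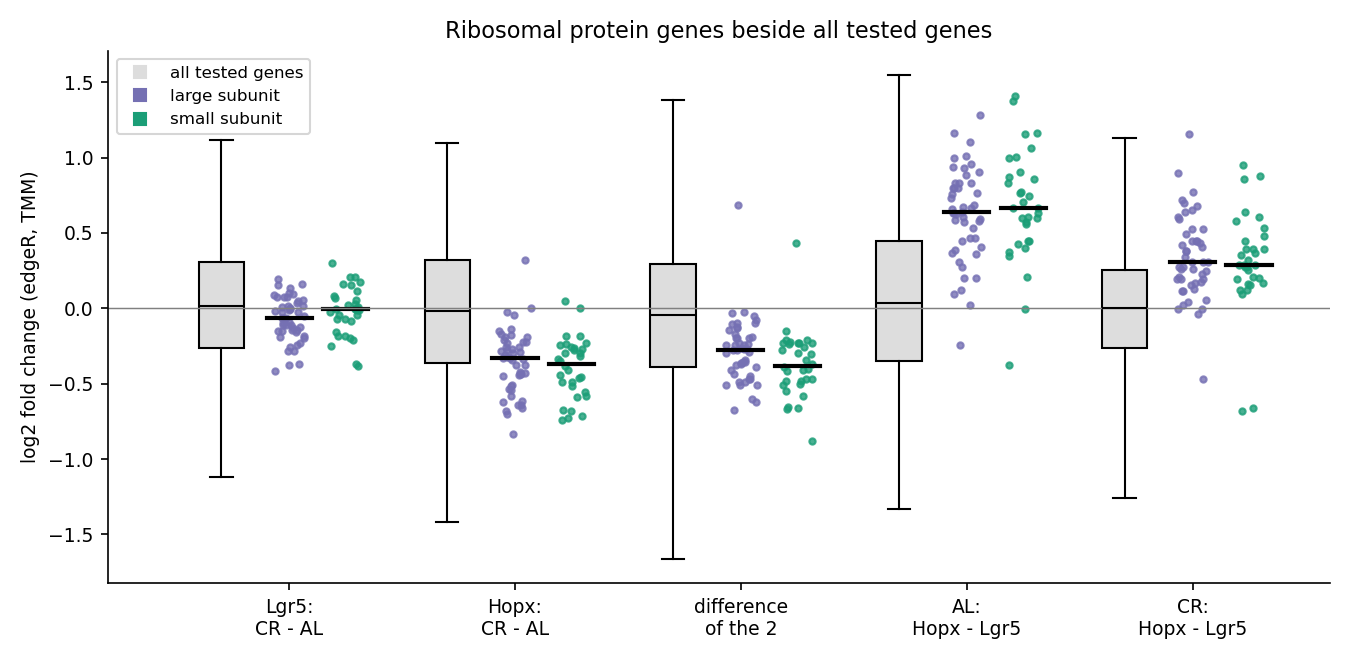
log2 fold changes from edgeR (vertical axis) for the 5 comparisons. Grey boxes show the middle of all 15839 tested genes with whiskers over the middle 90% of genes; points are members of the large (purple) and small (green) subunit, black bars their medians, with Rps12 left out. For Hopx against Lgr5 under AL the subunit medians are 0.64 and 0.67 on this scale, while by TPM the median of all members is -0.15.

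Large and small subunit members overlapped in every comparison. By CPM the large subunit medians were -0.07 for Lgr5 diet, -0.33 for Hopx diet, 0.64 for Hopx against Lgr5 under AL and 0.31 under CR. The small subunit medians were -0.01, -0.35, 0.67 and 0.29. The log2 ratio of summed TPM, large over small, was 0.40, 0.44 and 0.45 in Lgr5 AL, 0.35, 0.34 and 0.45 in Lgr5 CR, 0.34 and 0.27 in Hopx AL, and 0.44 and 0.30 in Hopx CR. The sums stood at 1.21 to 1.37 to 1 in all libraries. Group means differed by at most 0.12 from Lgr5 AL, where the pooled SD within groups was 0.064. Hopx AL lay below all 3 Lgr5 AL libraries, while Hopx CR and Lgr5 CR overlap with them. As a difference of mean log2(TPM + 1) the value ran from -0.08 to 0.11, and Hopx AL and Lgr5 AL overlap there.

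Shorter members had larger log2 differences between Hopx and Lgr5 than longer ones, an order that 1 factor per library does not alter. Length is the effective length that the authors' count and TPM imply, relative to the median tested gene, and all 81 members have one. Members ranged from 0.046 to 1.13 with a median of 0.20, and 80 were shorter than the median gene. Over 80 members (Rps12 left out) Spearman's rho of length with the log2 difference was -0.66 for Hopx against Lgr5 under AL, -0.53 under CR and 0.37 for Hopx diet. It was -0.08 for Lgr5 diet. The genes share the libraries, so these are descriptions. Other tested genes had a rho of -0.25, -0.14, 0.30 and 0.14 for the same 4 comparisons.

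Gene length moved with the comparisons outside the ribosome too. Tested genes were split by length into 5 equal groups. Among the 3151 other genes of the shortest group the median for Hopx against Lgr5 under AL was 0.34, and it was -0.16 in the longest group. The 76 members in the shortest group had a median of 0.67. In that comparison 65.8% of them were higher with an unadjusted p under 0.05 in edgeR, as were 19.6% of the other genes of the group. For Hopx diet the shortest and longest other genes had medians of -0.28 and 0.22, and those members -0.34. For Lgr5 diet the values were -0.08, 0.11 and -0.02. Nuclear genes of the respiratory chain, whose median length was 0.20, as short as the members, had medians of 0.69 for Hopx against Lgr5 under AL (members 0.64), 0.48 under CR (0.29) and -0.18 for Hopx diet (-0.34). The part of length in the members' values was not tested.

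**Figure D4:**
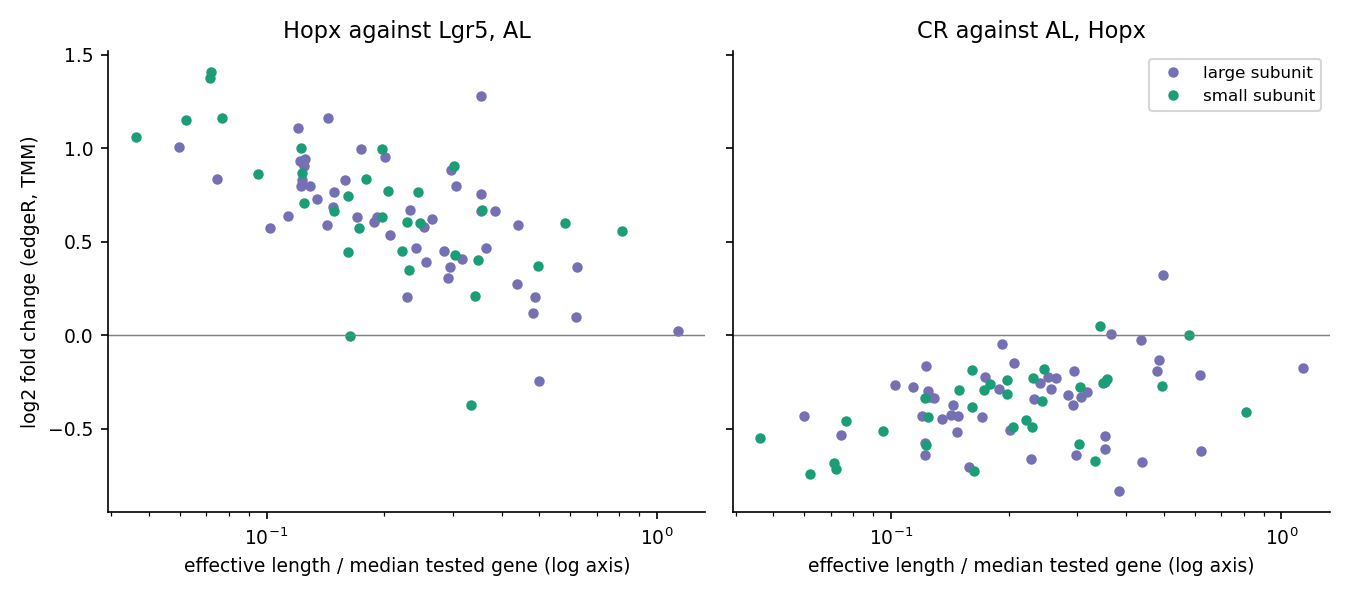
Relative effective length (horizontal, log axis, median tested gene at 1) against the edgeR log2 fold change (vertical) for 80 members, large subunit purple and small green. Left, Hopx against Lgr5 under AL, where short members tend to lie highest (Spearman's rho -0.66); right, CR against AL in Hopx, where short members tend to lie lowest (rho 0.37). A change to TPM would move all points of a panel by about the same amount.

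The relation with length differed between libraries. The rho of a member's length with its departure from the median member was -0.52 and -0.58 in Hopx AL and -0.62 in Hopx CR replicate 2. It was 0.68 and 0.63 in replicate 3 of Lgr5 AL and CR, the libraries of isolation 3, and 0.24 in Hopx CR replicate 1. The other Lgr5 libraries lay between 0.03 and 0.36. Departures are set against each member's mean over the 10 libraries, so the values across libraries are not independent.

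Among functional groups, the stalk proteins, which recruit and activate elongation factors, were uneven. Rplp1 stood at 82.3, 97.5 and 77.3 CPM in the Lgr5 AL libraries, 85.4, 116 and 61.3 in Lgr5 CR, 147 and 222 in Hopx AL, and 104 and 169 in Hopx CR, and Rplp0 at 574, 848 and 619 CPM in the Lgr5 AL libraries, 635, 825 and 658 in Lgr5 CR, 799 and 846 in Hopx AL, and 744 and 871 in Hopx CR. Rplp1 was higher in Hopx AL than in every Lgr5 library (log2 difference of 1.11, SE 0.30; adjusted p = 0.123, edgeR), whereas Hopx and Lgr5 overlap for Rplp0 (log2 difference of 0.27, SE 0.22). Under CR in Hopx all 4 stalk members were lower, by 0.03 for Rplp0 to 0.68 for Rpl12 on the log2 scale. Of the tunnel and exit proteins, Rpl39 and Rpl31 had log2 differences of 1.00 and 0.83 for Hopx against Lgr5 under AL, and Rpl4, which lines the tunnel, 0.10. Copy rows held 30.0% of the TPM of Rpl39 and its copies, and 42.5% for Rpl31. All 8 were lower under CR in Hopx. In that comparison 77 of 81 members were lower, as were 51.3% of all genes. The counts of lower stalk, tunnel and exit proteins therefore do not set them apart from the other members.

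Of the 5 proteins at the decoding centre and beak, Rps12 and Rps23 have most of their reads in copy rows. By their own rows Rps15, Rps23, Rps10 and Rps27a, the last made as a fusion with ubiquitin, were higher in Hopx AL by 0.57 to 0.77 and lower under CR in Hopx by 0.30 to 0.49. Rps2 and Rps3, which line the mRNA entry, differed by 0.67 and 0.60 between lines under AL, and Rps3 by -0.00 for Hopx diet. Rps6, the substrate of S6 kinase downstream of mTORC1, stood at 235, 317 and 259 CPM in the Lgr5 AL libraries, 241, 311 and 235 in Lgr5 CR, 352 and 375 in Hopx AL, and 271 and 329 in Hopx CR. Hopx AL was above all Lgr5 libraries and Hopx CR overlapped them, with a log2 difference of 0.43, SE 0.20 under AL (adjusted p = 0.298, edgeR). Its diet differences were -0.04 in Lgr5 and -0.28 in Hopx. Copy rows held 22.8% of the TPM of Rps6 and its copies. Of 9 genes mutated in Diamond-Blackfan anaemia, 9 were higher in Hopx under AL (median 0.61), and 8 were lower under CR in Hopx, with Rps7 at 0.05. Of all 81 members, 77 were higher in Hopx under AL (median 0.64), as were 52.4% of all genes. Under CR in Hopx 77 members were lower, as were 51.3% of all genes. The counts for the anaemia genes therefore do not set them apart from the other members. None of the functional groups had a member past the adjusted threshold in edgeR.

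Of the paralogs, Rps27l, Rpl22l1, Rpl7l1 and Rps4l were kept. Rpl7l1, an assembly-stage relative of Rpl7 and the longest member, had a small difference between lines (log2 difference of 0.02, SE 0.19), against 0.30 for Rpl7. It stood at 133, 139 and 145 CPM in the Lgr5 AL libraries, 106, 136 and 134 in Lgr5 CR, 163 and 119 in Hopx AL, and 113 and 136 in Hopx CR. Rps4l stood at 44.1, 44.5 and 33.2 CPM in the Lgr5 AL libraries, 35.8, 30.7 and 27.7 in Lgr5 CR, 22.2 and 40.4 in Hopx AL, and 18.4 and 20.8 in Hopx CR, where all Hopx libraries except Hopx AL replicate 2 were below every Lgr5 library. RefSeq annotates Rps4l on chromosome 6 as a transcribed pseudogene, and Rps12l1 on chromosome 7 as a pseudogene, while the other 79 members are protein coding. Rpl22l1 was higher by 0.59 in Hopx AL, and its counterpart Rpl22 by 0.95.

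Reads shared with copies moved some members. Summed over 10 libraries, pseudogene and near-copy rows held 99.1% of the TPM of Rps12 and its copies, 75.8% for Rps23, 71.2% for Rpl27 and 59.1% for Rps13. Rps12 was listed at 14.1 TPM in Lgr5 AL replicate 3, 12.01 TPM in Lgr5 CR replicate 3 and under 0.01 TPM in the other 8 libraries. Those 2 libraries are isolation 3. Its 23 copy rows, Rps12l1 among them, held 169.9 to 513.9 TPM. Rps12l1 stood at 118, 111 and 145 TPM in the Lgr5 AL libraries, 139, 129 and 92.2 in Lgr5 CR, 125 and 273 in Hopx AL, and 95.3 and 189.8 in Hopx CR, highest in both libraries of isolation 5.

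Rps13 was at 29.9 TPM in Hopx CR replicate 1, against 89.6 to 250.2 TPM elsewhere. Its copies held 245 TPM there, so the sum was 275 TPM, within the 260.2 to 485.3 TPM of all libraries. With copies added, Rps13 was 0.72 higher in Hopx under AL in place of -0.00. Rpl3 stood at 574, 813 and 774 TPM in the Lgr5 AL libraries, 478, 506 and 474 in Lgr5 CR, 279 and 443 in Hopx AL, and 510.4 and 566 in Hopx CR. Its copies ranged from 0.19 to 344.7 TPM and were under 2 TPM in 4 libraries: Lgr5 AL replicates 1 and 2 and both Hopx CR. With copies added, the Lgr5 diet difference of Rpl3 went from -0.37 to 0.03 and the interaction from 0.69 to -0.14. This sum was tried after the data had been seen. Rpl21 had few reads in copies and kept its order of libraries.

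**Figure D5:**
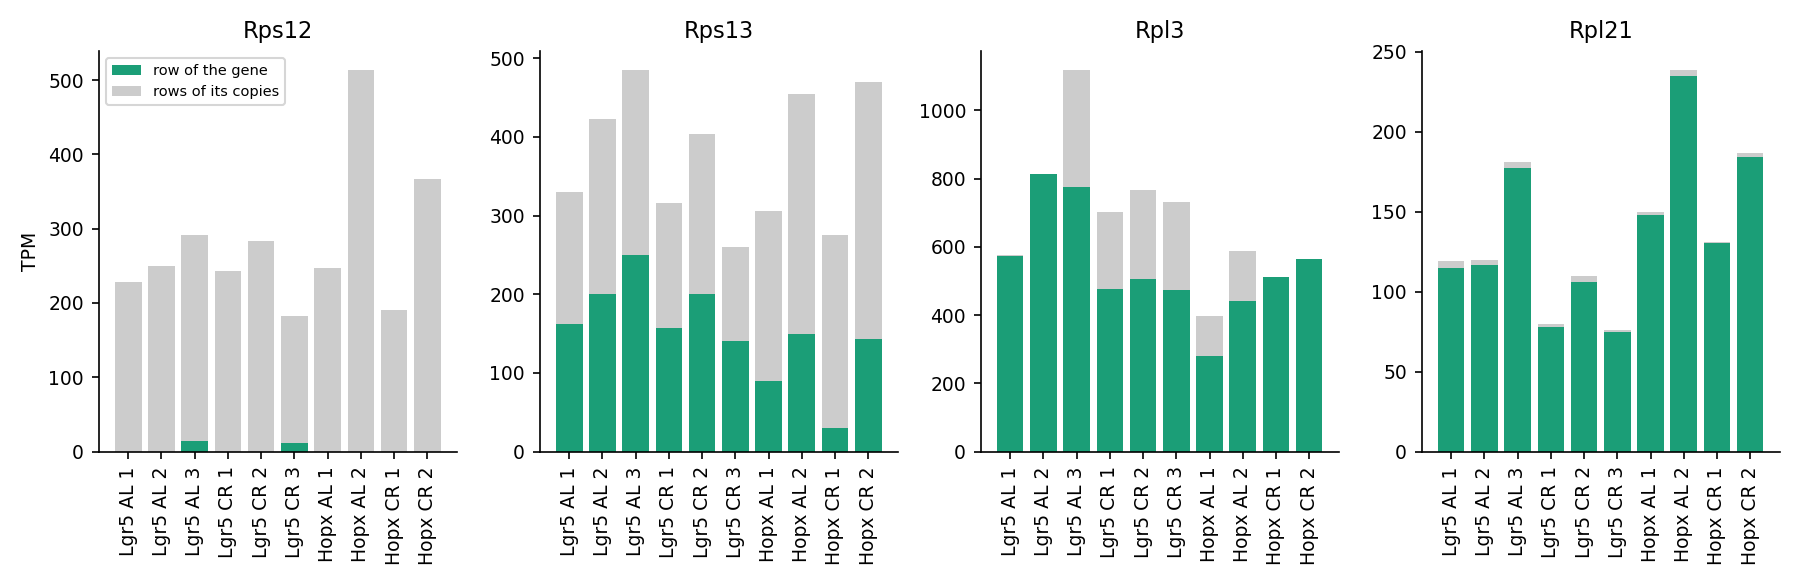
TPM per library of the row of Rps12, Rps13, Rpl3 and Rpl21 (green) and of their pseudogene and near-copy rows (grey, stacked). Rps12 is held by copies in all libraries, Rps13 in Hopx CR replicate 1 has 29.9 TPM of 275, the copies of Rpl3 vary between 0.19 and 344.7 TPM, and Rpl21 has few.

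The TOP tract was looked for at annotated starts in RefSeq promoters (GRCm38.p6), which cover 59 of 81 members. A C at the first base followed by at least 4 pyrimidines was at a start of 13 of 59 members (22.0%), and of 2.86% of 11066 other tested genes. A C within 10 bases of the start followed by at least 7 pyrimidines was found for 24 of 59 (40.7%) and 10.3% of the other genes. Annotated starts are not always the start used, and 9 members have more than 1. The windows of 6 members from the functional groups above, 20 bases before to 10 bases from the start, show the tract in capitals:
Rps6: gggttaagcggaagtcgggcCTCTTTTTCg
Rps27: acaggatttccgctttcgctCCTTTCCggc
Rps10: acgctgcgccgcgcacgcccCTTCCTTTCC
Rpl35: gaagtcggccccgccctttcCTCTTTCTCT
Rpl35a: gcgcggcggggcttgccttcCTCTTTCCgc
Rplp2: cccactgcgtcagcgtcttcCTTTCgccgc
They lie at chr4:86857358-86857387 (-), chr3:90213639-90213668 (-), chr17:27635235-27635264 (-), chr2:39005122-39005151 (-), chr16:33056462-33056491 (+) and chr7:141447631-141447660 (+). The tract is 9 pyrimidines long in Rps6, 7 in Rps27, 10 in Rps10, 8 in Rpl35a and 5 in Rplp2, and in Rpl35 its 11 run past the window. The 13 members with such a tract had a median of 0.75 for Hopx against Lgr5 under AL, and the 46 without one 0.63. Length was not matched between these sets, and its rho with this log2 difference was -0.66 over 80 members. The part of length in this was not tested. For Hopx diet the medians were -0.33 and -0.30, and for Lgr5 diet -0.04 and -0.06.

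Other genes of the pathway gave a background. Of 18 other mRNAs known to carry TOP tracts, such as elongation factors, none passed in edgeR. Their medians were -0.11 for Lgr5 diet, -0.20 for Hopx diet, 0.21 for Hopx against Lgr5 under AL and 0.07 under CR, smaller in size than the members' except in Lgr5. Of 72 tested ribosome assembly factors none passed, with medians of -0.07, -0.07, 0.05 and -0.06, near 0 in every comparison. Both lists hold longer genes than the members. Their median relative lengths were 0.66 for the TOP mRNAs and 0.87 for the assembly factors, against 0.20 for the members. The part of length in these contrasts was not tested. Of 12 regulators of TOP mRNAs and mTORC1, none passed in edgeR. Those named here were picked for their small p in a comparison. Mtor had a log2 difference of 0.48 under CR in Lgr5 (SE 0.19, adjusted p = 0.465, edgeR) and 0.92 in Hopx (SE 0.24, adjusted p = 0.469). Rps6kb1, the S6 kinase, had 0.58 in Lgr5 (SE 0.26, adjusted p = 0.509) and 0.15 in Hopx.

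Mitochondrial ribosomal proteins, encoded by nuclear genes and built into a separate ribosome, also had no gene past the threshold. Of 77, 66 were lower under CR in each line (48.2% of all genes in Lgr5, 51.3% in Hopx), with medians of -0.18 in Lgr5 and -0.21 in Hopx. Between lines their medians were 0.31 under AL and 0.29 under CR, with 69 and 73 higher in Hopx (52.4% and 50.2% of all genes). Their median relative length was 0.36. Of other genes in the shortest length group, 26.1% were higher for Hopx diet and 74.0% higher in Hopx under AL. The part of length was not tested. For the cytosolic members the diet medians were -0.02 and -0.34. Whether the lists differ was not tested.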

How the data were processed

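RNA of 10 libraries was amplified as full-length cDNA with SMART-Seq v4, tagmented with Nextera XT and sequenced on a NextSeq 500, per the labels' protocols. The kits named add no molecular identifiers and mark no strand. The authors deposited estimated counts and TPM per gene symbol. The submitters' processing notes name kallisto, edgeR and the build GRCh38, with no versions. That build is human and the symbols are mouse, so no coordinates were taken from the files. Settings and annotation were not given in the sources used here.

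Estimated counts were rounded. edgeR 4.0.16 (R 4.3.3) kept 15839 of 30295 rows (filterByExpr, minimum count 10), scaled by TMM and fitted 4 group means to all 10 libraries, with quasi-likelihood tests of 5 contrasts and Benjamini-Hochberg adjustment over all tested genes, threshold 0.05. SE is the fold change over the root of F. The common biological coefficient of variation was 0.389. Alternatives were DESeq2 1.42.0 and its size factors, limma 3.58.1 on log2(TPM + 1), TMM without the members, no filter, isolation as a block and each library left out. Adding copies to each member was chosen after the data had been seen. The script was tested on simulated data. Named genes were the 5 members of smallest p per contrast, the 3 highest and 3 lowest by TPM, fixed functional groups and the 5 departing most from the median member among those with a mean TPM of at least 10, which leaves out Rps12. The members and lists were chosen with earlier results of these data known. The labels give each AL and CR pair a shared isolation number. Deviations from group means correlated by 0.083, 0.23, 0.10, 0.049 and 0.049 in isolations 1 to 5. With 2 libraries in each Hopx group, the values of isolations 4 and 5 are equal by construction. Replicates are not identical.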

Additional observations from a re-analysis of the deposited data

How the results depend on the processing

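No member passed the adjusted threshold in edgeR under TMM, RLE, TMM without the members, isolation as a block, copies added or any single library left out. Counts of members called moved for Hopx against Lgr5: under AL to 3 with no filter, 11 with DESeq2 and 3 (lower) with limma on log2(TPM + 1), and under CR to 1 with DESeq2. On TPM with limma the members' median was -0.15 for Hopx against Lgr5 under AL, -0.020 under CR and 0.20 for the interaction, all of opposite sign to the edgeR values; the all-gene median moved with it, as the scales differ by 1 factor per library. Rpl23 under AL went to -0.0030. Leaving out 1 library gave medians of -0.19 to 0.08 for Lgr5 diet, -0.63 to -0.10 for Hopx diet, -0.61 to -0.11 for the interaction, 0.49 to 0.76 for Hopx against Lgr5 under AL and 0.03 to 0.56 under CR; where 1 library was left in a group it was assumed to vary like the others. With isolation as a block (replicate pairing) the diet medians were -0.04 and -0.36 and the interaction -0.29, and no call changed. Only counts at an unadjusted p under 0.05 moved by over 1.5 times. They are given above for Hopx diet and the interaction. For Lgr5 diet 1 member was lower with such a p, in place of none. With copies added, Rpl3 had 0.033 for Lgr5 diet and -0.14 for the interaction. Mean log2(TPM + 1) in place of summed TPM changed large minus small to -0.018 for Hopx AL and 0.035 for Hopx CR, against Lgr5 AL. Groups of 2 and 3 limit every test.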

Other observations

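Of 3 other short sequences looked for in promoters, 2 were counted on both strands of 300 bases around annotated starts (250 before and 50 after). The letters CCGGAAG, a core of sites for GABP and other Ets factors, were in 24 of 59 members (40.7%), in 25 of 68 mitochondrial ribosomal protein genes (36.8%) and in 17.6% of 11066 other tested genes. The letters AAGATGGC, a core for YY1, were in 6 of 59 members (10.2%), 12 of 68 mitochondrial ribosomal protein genes (17.6%) and 4.59% of the others. The letters TATAAA, the core of the TATA box, were counted on the sense strand only, in the window from 40 to 10 bases before the start, and were there in 1 of 59 members (1.69%) and 2.00% of the others. The pyrimidine tract at the first base, present in 13 of 59 members, was in 0 of 68 mitochondrial ribosomal protein genes. A match of letters is not a binding site, and no test of these shares was made.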
